A study of Mus musculus with 42 samples.

Results

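The CXC chemokines described here are 7 genes of mouse macrophages, Cxcl1, Cxcl2, Cxcl3, Cxcl9, Cxcl10, Cxcl11 and Cxcl16, taken by gene name from a table of 54532 genes. All 7 were among the 17648 genes with enough reads to test. The genes were sequenced in bulk in 42 cultures of bone marrow-derived macrophages, which are cells grown from whole marrow with macrophage colony-stimulating factor. The donors were male wild-type (WT) C57BL/6 mice, young at 10 to 12 weeks or aged at 18 to 20 months, and at each age there were 6 groups. Control cells received 0.1% normal saline (NS) for 24 h and were collected on day 3. β-glucan, a fungal cell wall polysaccharide sensed mainly through Dectin-1, was given at 5 µg/mL and cells were collected at 4 h, at 24 h, or on day 3 after a 24 h exposure. LPS, a bacterial cell wall lipid sensed through TLR4, was given at 100 ng/mL for 4 h, either to cells that had seen no β-glucan (naive) or on day 3 after the 24 h β-glucan exposure (primed). Groups held 3 cultures, labelled as biological replicates, except that young control and young LPS held 6. The cells are macrophages differentiated in a dish, and the labels do not say whether cultures of different groups shared a mouse. The saline control matched the day 3 group in time but not the 4 h and 24 h groups, and no saline exposure is given for the naive LPS group. Time in culture and treatment therefore cannot be told apart in those comparisons.

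CXC chemokines are small secreted proteins that steer leukocytes. CXCL1, CXCL2 and CXCL3 carry the ELR motif, bind CXCR2 and draw neutrophils, and their genes are classic targets of NF-κB with short-lived messenger RNAs. CXCL9, CXCL10 and CXCL11 bind CXCR3, draw activated T cells and natural killer cells, and depend on interferon signalling. CXCL16 is made as a transmembrane protein that binds CXCR6 and is released from the cell surface by the proteases ADAM10 and ADAM17.

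The gene positions follow these classes (mm10). Cxcl3 (chromosome 5, 90786103 to 90789600), Cxcl1 (chromosome 5, 90891241 to 90893115) and Cxcl2 (chromosome 5, 90903871 to 90905938) lie together on the plus strand. Cxcl9 (chromosome 5, 92321347 to 92328079), Cxcl10 (chromosome 5, 92346638 to 92348889) and Cxcl11 (chromosome 5, 92359544 to 92365485) lie 1.42 Mb further on, all on the minus strand. Cxcl16 (chromosome 11, 70453983 to 70459984, minus strand) stands apart. The deposited table annotates Cxcl11 as a polymorphic pseudogene, and C57BL/6 mice are known to make no functional CXCL11 protein, so its values are those of a transcript only. Its values were kept beside those of Cxcl9 and Cxcl10.

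The promoters show the sequence background of the 2 classes. They are stretches of RefSeq promoters (GRCm38.p6), written 5′ to 3′ on the strand of the gene, with motif matches in capitals. The promoters of Cxcl1, Cxcl2 and Cxcl3 are shown over 60 bases (chr5:90891159-90891218, chr5:90903787-90903846 and chr5:90786013-90786072) because all 3 hold the same 11 capital bases. That of Cxcl10 is shown over 150 bases (chr5:92348968-92349117) because it holds both motif kinds.
Cxcl1: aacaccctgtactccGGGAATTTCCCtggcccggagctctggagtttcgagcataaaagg
Cxcl2: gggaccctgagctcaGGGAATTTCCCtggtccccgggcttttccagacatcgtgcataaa
Cxcl3: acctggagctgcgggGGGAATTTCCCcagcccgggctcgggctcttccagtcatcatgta
Cxcl10: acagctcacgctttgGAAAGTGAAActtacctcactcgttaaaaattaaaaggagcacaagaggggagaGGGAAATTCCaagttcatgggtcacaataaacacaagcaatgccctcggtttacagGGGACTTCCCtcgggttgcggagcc

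The capitals in Cxcl1, Cxcl2 and Cxcl3 mark 2 overlapping matches to the NF-κB consensus, 1 on each strand. Their first bases lie at -71, -97 and -73 from the start used by the RefSeq promoter. That start can differ from the gene positions given above. In Cxcl10 the first capitals mark the core of an interferon-stimulated response element (GAAA, any 2 bases, GAAA), at -213, and the other pair mark NF-κB matches at -159 and -103. Searched on both strands over 300 bases from 250 before to 50 after each start, the NF-κB consensus was found in 4.5% and the response element core in 3.43% of 32817 promoters. No response element core was matched in the windows of Cxcl1, Cxcl2 and Cxcl3, and neither motif was matched in that of Cxcl9. Cxcl11 and Cxcl16 were not in the promoter table.

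The ends of the transcripts differ as well. Messages of short life often carry AU-rich elements, runs of the pentamer ATTTA, in the 3′ untranslated region (UTR), where proteins such as tristetraprolin (Zfp36) bind. Windows of 30 bases with the most pentamers in each of 3 chemokines are shown to compare the classes, with the pentamers in capitals.
Cxcl1: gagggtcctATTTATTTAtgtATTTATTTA
Cxcl2: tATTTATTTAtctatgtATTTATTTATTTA
Cxcl10: caccggcatgtgcctttgtctctccATTTA

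Cxcl1 held 7 pentamers in 592 bases of 3′ UTR (GENCODE M21), or 11.8 per kb, a density reached by 0.467% of 19921 genes. Cxcl2 held 11 in 1494 bases (7.36 per kb, reached by 2.5%) and Cxcl3 held 5 in 645 bases (7.75 per kb, reached by 2.09%). Cxcl10 held 3 in 996 bases (3.01 per kb, reached by 22.3%). Cxcl9, Cxcl11 and Cxcl16 lay at 1.22, 0.821 and 1.41 per kb against a median of 1.35 over all genes. In these transcripts the 3 neutrophil-attracting chemokines were thus denser in the pentamer than the other 4 (the plot of pentamer density). This search was chosen after expression values had been seen, and its bearing on them was not tested.

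**Figure D1:**
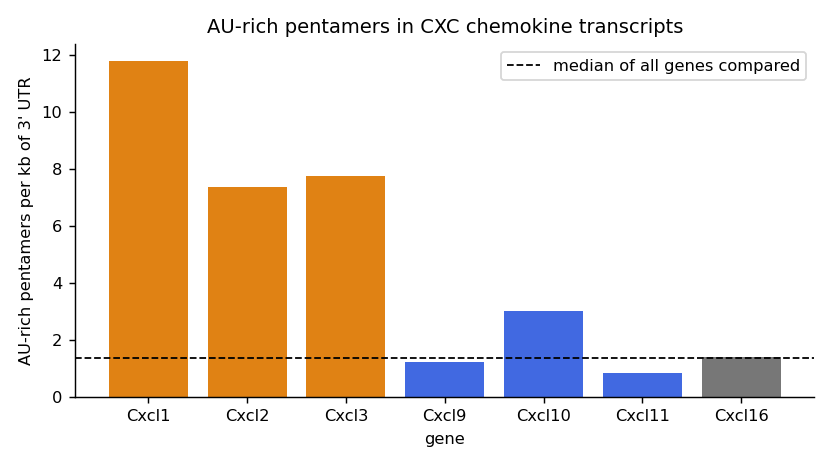
AU-rich pentamers per kb of 3′ UTR in the 7 CXC chemokine transcripts (bars; orange, neutrophil-attracting; blue, interferon-linked; grey, Cxcl16), with the median of 19921 genes as a dashed line at 1.35. Cxcl1, Cxcl2 and Cxcl3 lie between 7.36 and 11.8 per kb, and the other 4 lie between 0.821 and 3.01.

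Library totals ran from 39850835 to 67347866 counts. Levels are given as CPM, counts scaled to a common library size by trimmed means of M values (TMM), and changes as log2 fold changes ± SE from edgeR's quasi-likelihood test, called at a Benjamini-Hochberg adjusted p below 0.05 over all tested genes. All 8 macrophage markers were above 1 CPM and summed to between 23076 and 37868 CPM. Neutrophil markers summed to 1.52 to 4.90 CPM, T and natural killer cell markers to at most 0.606 CPM with 4 of 8 at 0 everywhere, and B cell markers to at most 1.52 CPM. Summed dendritic (0.590 to 12.6 CPM), endothelial (2.93 to 40.0 CPM) and stromal (22.3 to 148 CPM) markers moved with LPS or age, and their part in the results was not tested. In bulk RNA, fewer cells of a type and less RNA per cell cannot be told apart. The labels do not explain young replicates 4 to 6. These libraries differed from young replicates 1 to 3 in 3074 genes (17.4%), among them Cxcl9 (1.00 ± 0.31, adjusted p = 0.0246) and Cxcl16 (0.42 ± 0.10, adjusted p = 0.00367), both higher in replicates 4 to 6 by the fit. For Cxcl9 this held under LPS (means of 505 against 243 CPM) and not in controls (0.0970 against 0.123 CPM). The fit carried 1 term for this set, shared by control and LPS libraries.

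**Figure D2:**
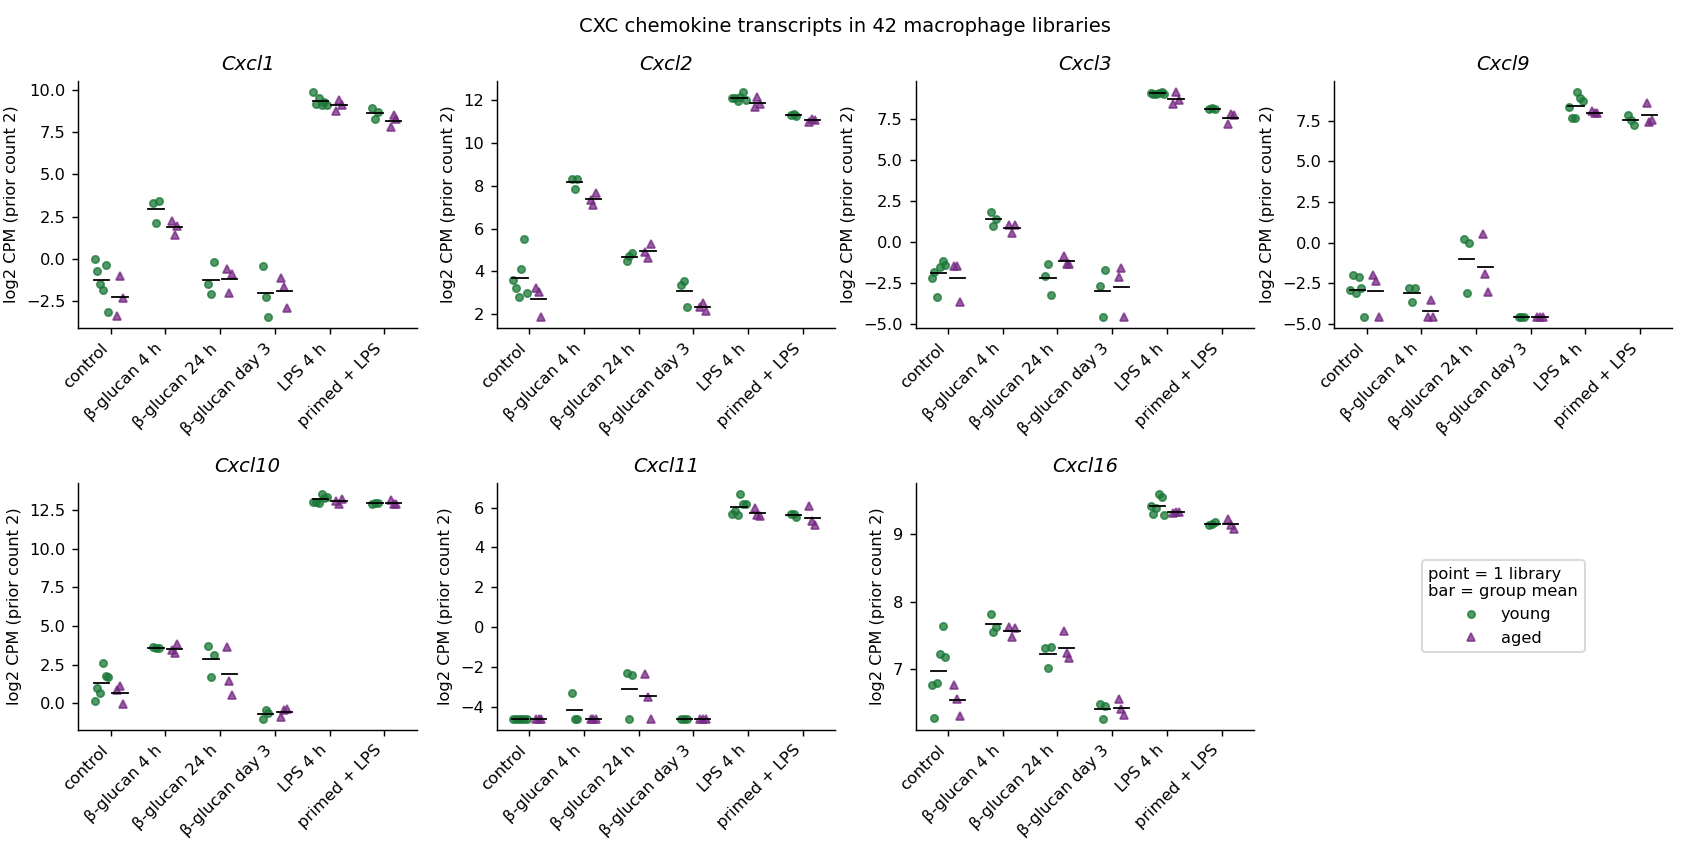
log2 CPM (prior count 2) of each CXC chemokine (panels, each with its own scale) in 42 libraries by treatment, with points for libraries (green circles, young; purple triangles, aged) and bars for group means. Among the groups without LPS, the means of Cxcl1, Cxcl2, Cxcl3, Cxcl10 and Cxcl16 are highest at 4 h at both ages. All 7 genes are highest with LPS.

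In control cells Cxcl16 stood at 131 ± 42.4 CPM (SD, n = 6) in young and 93.8 ± 15 CPM (SD, n = 3) in aged cultures. Cxcl2 stood at 16.4 ± 14.5 and 7.04 ± 3.02 CPM, with a spread in young controls that came largely from replicate 5, at 45.1 CPM against 6.84 to 17.0 in the other 5. Cxcl10 lay at 2.84 ± 1.80 and 1.61 ± 0.604 CPM. Cxcl1, Cxcl3 and Cxcl9 were below 1 CPM in every control library, and Cxcl11 had no count in any of the 9, which allows up to 3 counts over each control group.

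β-glucan at 4 h raised all 3 neutrophil-attracting genes, Cxcl10 and Cxcl16. Cxcl2 rose from its control level to 318, 230 and 323 CPM in the 3 young cultures and to 164, 137 and 204 CPM in the 3 aged cultures. Every treated library lay above every control library of its age. Cxcl1 reached 9.87, 4.28 and 10.8 CPM in young and 4.75, 2.65 and 3.77 CPM in aged cells. Cxcl3 reached 3.49, 1.91 and 2.62 CPM in young and 2.03, 1.44 and 1.98 CPM in aged cells. For both genes too the treated and control libraries did not overlap at either age.

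The log2 changes of the neutrophil-attracting genes at 4 h in young cells were 4.58 ± 0.38 for Cxcl2 (edgeR adjusted p = 2.34e-10), 3.88 ± 0.42 for Cxcl1 (adjusted p = 4.20e-08) and 3.43 ± 0.38 for Cxcl3 (adjusted p = 4.20e-08). In aged cells they were 4.60 ± 0.45 for Cxcl2 (edgeR adjusted p = 1.17e-08), 4.12 ± 0.62 for Cxcl1 (adjusted p = 2.55e-05) and 3.18 ± 0.49 for Cxcl3 (adjusted p = 2.62e-05).

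Of the interferon-linked genes, Cxcl10 alone was called at 4 h. It stood at 12.4, 11.8 and 11.8 CPM in young and 10.8, 9.34 and 13.9 CPM in aged cells, above every control library. Its log2 change was 2.55 ± 0.43 in young (edgeR adjusted p = 7.65e-05) and 2.87 ± 0.51 in aged cells (adjusted p = 0.000239). Cxcl9, which in the textbook account needs interferon-γ, had 12 counts over the 3 young and 2 over the 3 aged libraries, and Cxcl11 had 3 and 0. Neither was called (edgeR adjusted p = 0.998 and 0.388 in young cells).

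Cxcl16 also rose at 4 h, to 203 ± 20.1 CPM in young (SD, n = 3) and 190 ± 9.96 CPM in aged cells (SD, n = 3). Its log2 changes were 0.88 ± 0.14 (edgeR adjusted p = 9.54e-06) and 1.02 ± 0.15 (adjusted p = 4.25e-06). In young cells the treated libraries (186 to 225 CPM) overlapped the controls (77.4 to 199 CPM), and in aged cells they did not. Altogether 5 of the 7 genes rose at each age, where 7.45% of tested genes rose in young and 4.87% in aged cells.

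**Figure D3:**
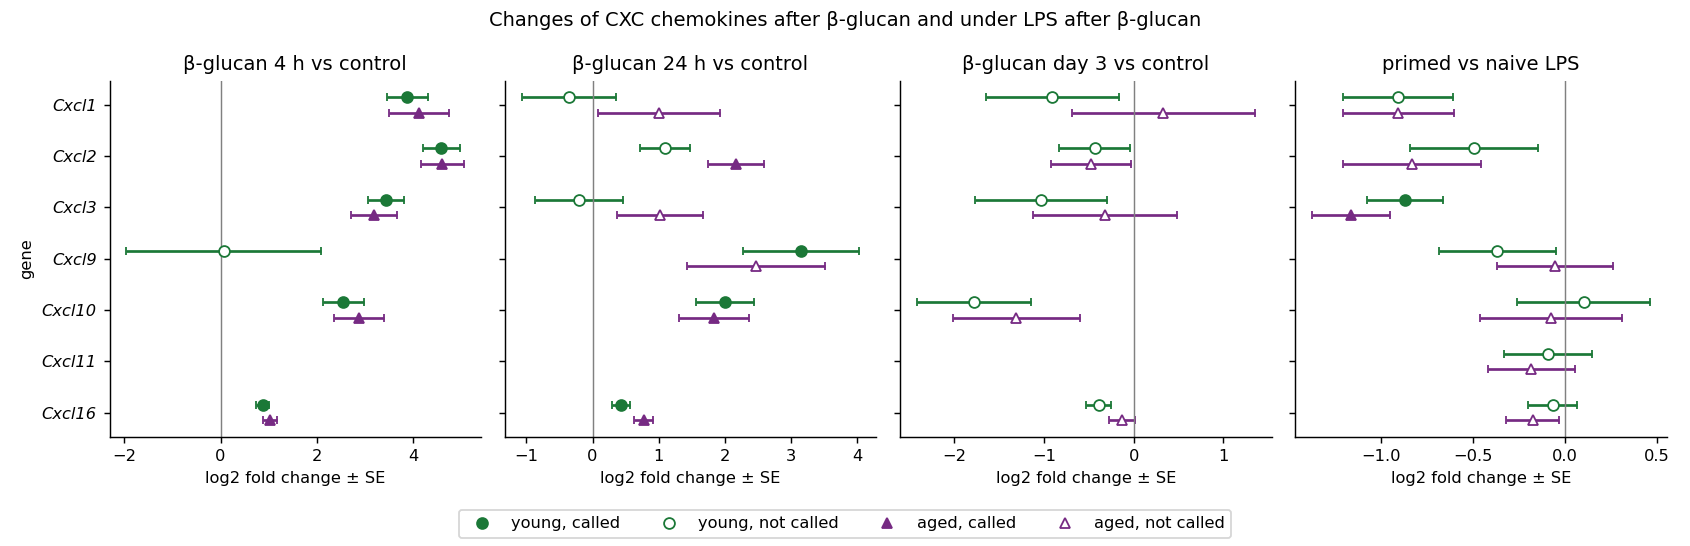
log2 fold change ± SE (edgeR) of each CXC chemokine in 4 comparisons, young (green circles) and aged (purple triangles), filled where the adjusted p is below 0.05. Genes with fewer than 10 counts in either group are not drawn. The neutrophil-attracting genes lie between 3.18 and 4.60 at 4 h. In primed against naive LPS all points except young Cxcl10 lie below 0, and only Cxcl3 is filled.

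By 24 h of β-glucan the neutrophil-attracting genes had fallen back from their 4 h level. Against 4 h, Cxcl1 changed by -4.23 ± 0.53, Cxcl2 by -3.49 ± 0.42 and Cxcl3 by -3.64 ± 0.48 in young cells (log2, highest edgeR adjusted p = 5.04e-06). In aged cells the corresponding values were -3.11 ± 0.56, -2.43 ± 0.40 and -2.16 ± 0.43 (highest edgeR adjusted p = 0.00186). No 24 h library of either age overlapped the 4 h libraries for these genes. At both ages 3 of 7 chemokines fell and none rose, where 4.15% of tested genes fell in young and 2.37% in aged cells. The other 4 were not called: Cxcl10, for example, changed by -0.54 ± 0.43 in young (edgeR adjusted p = 0.551) and by -1.03 ± 0.44 in aged cells (adjusted p = 0.254). Cxcl16 lay close to the threshold in young cells, at -0.44 ± 0.14 (edgeR adjusted p = 0.0525), and changed by -0.25 in aged cells (adjusted p = 0.459). DESeq2 called 5 of the 7 genes at each age, so the limit to 3 genes depends on the test.

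Against control, other members of the family were called at 24 h. In young cells 4 of 7 were called, Cxcl9, Cxcl10, Cxcl11 and Cxcl16, where 7.79% of tested genes rose. In aged cells 3 were called, Cxcl2, Cxcl10 and Cxcl16, where 4.02% rose. Cxcl2 stood at 22.3, 26.0 and 29.2 CPM in young and 29.6, 24.9 and 39.1 CPM in aged cells. Those levels are alike, but the log2 change was 1.09 ± 0.38 in young (edgeR adjusted p = 0.0584) and 2.17 ± 0.42 in aged cells (adjusted p = 0.00136). Without young control replicate 5, the library with 45.1 CPM, the young change was 1.38 and was called (edgeR adjusted p = 0.000539). The age difference of this change did not pass (1.08 ± 0.56, edgeR adjusted p = 1).

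The interferon-linked genes at 24 h differed between cultures of the same group. In young cells Cxcl10 stood at 12.8, 3.21 and 8.83 CPM and Cxcl9 at 1.11, 0.0726 and 0.928 CPM in replicates 1, 2 and 3. Cxcl11 had 8, 0 and 7 counts in the same libraries. Replicate 2 was the low culture for all 3 genes, and its values lay within the control range. In aged cells Cxcl10 stood at 12.5, 2.68 and 1.39 CPM and Cxcl9 at 1.40, 0.225 and 0.0797 CPM. There replicate 1 was high and the other pair lay at or near the controls.

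The regulators of the interferon pathway moved with these chemokines from culture to culture. Irf7, the transcription factor that amplifies type I interferon responses, stood at 61.3, 16.3 and 36.6 CPM in the young 24 h libraries and at 48.2, 21.9 and 16.4 CPM in the aged ones. Its controls lay between 6.39 and 17.5 CPM in young and between 8.94 and 12.7 CPM in aged cells. Stat2, which carries the type I interferon signal, stood at 111, 57.9 and 81.8 CPM in young and 100, 56.8 and 53.5 CPM in aged cells at 24 h. The order of the 3 cultures was the same for Irf7, Stat2 and Cxcl10 at each age.

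With that spread, the 24 h calls of the interferon-linked genes rest on few libraries. In young cells the log2 change was 2.00 ± 0.44 for Cxcl10 (edgeR adjusted p = 0.00265) and 3.16 ± 0.88 for Cxcl9 (adjusted p = 0.0163). The Cxcl9 change depends on the set term, which its control libraries did not follow. It ran from 2.42 to 3.74 over 17 alternative settings, and its call was lost in 5 of them. Cxcl11 was at least 11.1-fold higher than the level that 3 counts over the control group would give (edgeR adjusted p = 0.0240). In aged cells Cxcl10 changed by 1.84 ± 0.53 (edgeR adjusted p = 0.0343), while Cxcl9 at 2.47 ± 1.04 did not pass (adjusted p = 0.193). Leaving out young replicate 1 left none of the 7 genes called, and leaving out young replicate 3 left 1. Without aged replicate 1 the change of Cxcl10 was 0.43 (edgeR adjusted p = 0.806). Cxcl16 rose by 0.44 ± 0.14 in young (edgeR adjusted p = 0.0319) and 0.77 ± 0.15 in aged cells (adjusted p = 0.000733). The young call was lost in 8 of 17 alternative settings.

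On day 3 after the 24 h exposure none of the 7 chemokines was called at either age by edgeR. At an unadjusted p below 0.05 there were 2 in young and 0 in aged cells, and DESeq2 called 2 and 0. The background was 0.782% of tested genes called in young and 0.221% in aged cells. Cxcl10 stood at 0.459, 0.711 and 0.600 CPM in young and 0.487, 0.695 and 0.712 CPM in aged cells. All 6 values lay below all control libraries of their age. How many of all tested genes separate in this way was not counted, so no fall is drawn from it. The log2 change of Cxcl10 was -1.78 ± 0.64 in young (edgeR adjusted p = 0.269) and -1.31 ± 0.71 in aged cells (adjusted p = 0.700). Cxcl9 had no count in any of the 6 day 3 libraries, against 38 counts over the 6 young and 19 over the 3 aged control libraries. Cxcl2 had returned to 8.95 ± 3.49 CPM in young and 4.97 ± 0.626 CPM in aged cells (SD, n = 3 each), within or below the control range.

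LPS raised all 7 chemokines at both ages, and no LPS library overlapped a control library. The background was 30.3% of tested genes higher in young and 26.6% in aged cells. Cxcl10 reached 8179 to 12081 CPM in the 6 young libraries, with a median of 9366, and 8760, 7751 and 9571 CPM in the aged ones. This one gene took 0.593% to 0.806% of all counts in young LPS libraries, and the 7 together took 1.04% to 1.28%. Cxcl2 stood at 4041 to 5330 CPM in young cells, with a median of 4383, and at 3302, 4519 and 3631 CPM in aged cells.

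On the log2 scale the rise under LPS was smaller for Cxcl16 than for the other genes. In young cells it was 11.81 ± 0.44 for Cxcl10, 11.65 ± 0.43 for Cxcl9, 11.04 ± 0.26 for Cxcl3, 10.39 ± 0.36 for Cxcl1, 8.21 ± 0.37 for Cxcl2 and 2.44 ± 0.11 for Cxcl16 (highest edgeR adjusted p = 5.83e-19). In aged cells it was 12.45 ± 0.64, 11.27 ± 0.60, 11.10 ± 0.37, 11.32 ± 0.54, 9.11 ± 0.54 and 2.78 ± 0.15 in the same order (highest edgeR adjusted p = 1.77e-15). Cxcl11, with no control count, was at least 7521-fold higher in young and 3327-fold higher in aged cells than 3 counts over the control group. Scaling by total counts moved the median change of all genes by -0.80 in young and -0.73 in aged cells. All 7 chemokines were still called higher under it.

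The annotated lengths of Cxcl9, Cxcl11 and Cxcl16 leave out introns, and among these 3 the order of levels under LPS was the same at both ages. In young cells Cxcl16 stood at 228 ± 20.8 CPM per kb, Cxcl9 at 124 ± 53.7 and Cxcl11 at 17.8 ± 5.22 (mean ± SD over 6 libraries). The lengths of Cxcl1, Cxcl2, Cxcl3 and Cxcl10 span their introns, so that their levels per kb are understated. Even so Cxcl10 (4269 ± 690 CPM per kb), Cxcl2 (2166 ± 220) and Cxcl1 (352 ± 77.9) lay above Cxcl16. The place of Cxcl3, at 154 ± 4.55 CPM per kb, cannot be told from these lengths.

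The 2 stimuli at 4 h differed in the level that each gene reached. Taking the young LPS level as the full measure, β-glucan at 4 h reached 29.5% of it for Cxcl16, 6.48% for Cxcl2, 1.26% for Cxcl1, 0.495% for Cxcl3 and 0.125% for Cxcl10. In aged cells the shares were 29.5%, 4.41%, 0.673%, 0.411% and 0.131%. For Cxcl9 and Cxcl11 it was below 0.03% at either age. All 7 genes were called higher in LPS than in β-glucan at 4 h at both ages, where 24.2% of tested genes were higher in young and 23.9% in aged cells. The log2 difference for Cxcl2 was 3.63 ± 0.40 in young (edgeR adjusted p = 3.49e-09) and 4.50 ± 0.43 in aged cells (adjusted p = 1.87e-10), and for Cxcl10 it was 9.26 ± 0.55 (adjusted p = 2.52e-15) and 9.58 ± 0.56 (adjusted p = 2.06e-15).

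A balance was computed for each library as the mean log2 CPM of Cxcl1, Cxcl2 and Cxcl3 minus that of Cxcl9, Cxcl10 and Cxcl11. It is a description with no test, since the classes were known when the genes were chosen. It stood at 2.25 ± 0.66 in young and 1.73 ± 0.38 in aged controls. At 4 h of β-glucan it rose to 5.39 ± 0.24 and 5.15 ± 0.42, and every library lay above every control. By 24 h it had come down to 0.82 ± 1.41 and 1.89 ± 1.44, with young libraries from -0.21 to 2.43 and aged libraries from 0.52 to 3.39. Against control the aged shift at 24 h was 0.15, and -0.26 with a prior count of 0.5, so that it had no settled direction.

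Under LPS both classes were high and the balance was 0.95 ± 0.45 in young and 0.97 ± 0.42 in aged cells, below every control of the same age in young replicates 1 to 6. The aged LPS range of 0.56 to 1.40 overlapped the lowest aged control at 1.38. Without LPS Cxcl9 and Cxcl11 lay near the floor that the prior count sets, and the size of the shift depended on it. Against control the young LPS shift was -1.29, -2.04 with a prior count of 0.5 and -3.49 for Cxcl2 against Cxcl10 alone. The aged LPS shift was -0.76, -1.50 and -3.26 in the same order. In primed cells the balance was 0.65 ± 0.13 in young and 0.16 ± 0.68 in aged cells. Young naive libraries 4 to 6 stood at 0.30, 0.80 and 0.63 and replicates 1 to 3 between 1.27 and 1.41, so the primed values of 0.54 to 0.80 lay within the whole naive range but below replicates 1 to 3.

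**Figure D4:**
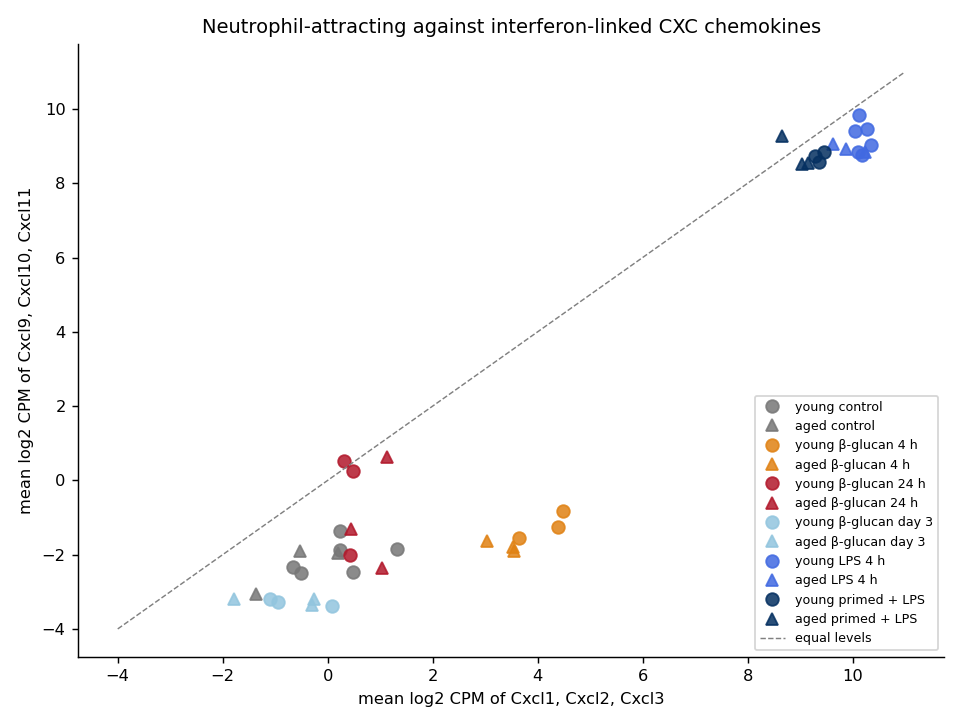
Mean log2 CPM of Cxcl1, Cxcl2 and Cxcl3 (x axis) against that of Cxcl9, Cxcl10 and Cxcl11 (y axis) in 42 libraries, with colour for treatment, circles for young, triangles for aged and a dashed line where both are equal. The 4 h β-glucan libraries lie to the right of the controls, 4 of the 6 libraries at 24 h lie above all controls, and all LPS libraries lie at the upper right.

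Priming by β-glucan was followed by a lower Cxcl3 under LPS at both ages. Cxcl3 stood at 525 to 565 CPM in the 6 young naive LPS libraries, with a median of 537, and at 275, 296 and 280 CPM in the primed ones. In aged cells it stood at 349, 566 and 411 CPM in naive and 147, 230 and 215 CPM in primed cells. Naive and primed libraries did not overlap at either age, and primed cells held 52.5% of the naive mean level in young and 44.7% in aged cells. The log2 change was -0.87 ± 0.21 in young (edgeR adjusted p = 0.0128) and -1.16 ± 0.21 in aged cells (adjusted p = 0.00304). Cxcl3 was the only one of the 7 genes called, where 1.17% of tested genes were lower in young and 0.380% in aged cells. DESeq2 gave the same direction and did not call it (adjusted p = 0.427 in young and 0.254 in aged cells), and edgeR on the compared groups alone did not call it in aged cells (adjusted p = 0.187). Without young primed replicate 1 or 3 the adjusted p was 0.0562 or 0.0608.

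Cxcl1 and Cxcl2 had the same direction without being called. Cxcl2 stood at 2516, 2673 and 2483 CPM in young primed against 4041 to 5330 CPM in young naive libraries, and at 2013, 2247 and 2168 CPM in aged primed against 3302 to 4519 CPM in aged naive libraries. Cxcl1 stood at 493, 307 and 410 CPM in young primed against 546 to 926 CPM in naive libraries, and at 222, 358 and 305 against 422 to 685 CPM in aged cells. In each case every primed library lay below every naive one. How many of all tested genes separate in this way was not counted. The log2 changes were -0.49 ± 0.35 (edgeR adjusted p = 0.524) and -0.83 ± 0.38 (adjusted p = 0.376) for Cxcl2 in young and aged cells, and -0.91 ± 0.30 (adjusted p = 0.0944) and -0.91 ± 0.30 (adjusted p = 0.188) for Cxcl1. Cxcl2 was called when the naive and primed groups were fitted alone, at -0.73 in young (edgeR adjusted p = 0.000140) and -0.82 in aged cells (adjusted p = 0.00401). The young change of Cxcl2 in the main fit depends on the set term, estimated at 0.67 ± 0.28. Replicates 1 to 3 and 4 to 6 averaged 9.43 and 23.3 CPM in controls, and 4269 and 4689 CPM under LPS.

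The interferon-linked genes and Cxcl16 were not called after priming. Primed cells held 82.5% of the naive mean level of Cxcl10 in young and 94.9% in aged cells. The young share depends on the set, as the naive mean was 8329 CPM in replicates 1 to 3 and 10900 CPM in replicates 4 to 6. The young primed mean was 7929 CPM, and that group held no replicates 4 to 6. No age contrast is drawn from these shares. In young cells the primed Cxcl10 values of 7786, 8035 and 7966 CPM lay below all naive ones, yet the fitted change was 0.10 ± 0.36 (edgeR adjusted p = 0.938). The fit uses 1 term for young replicates 4 to 6 of both control and LPS, estimated at 0.75 ± 0.31 for Cxcl10, so the sign of this change is not that of the values and no direction is drawn from it. Cxcl9 overlapped between naive and primed cells at both ages (202 to 613 against 150 to 235 CPM in young, 250 to 271 against 174 to 383 CPM in aged cells). Cxcl11 changed by -0.09 ± 0.24 in young and -0.18 ± 0.24 in aged cells, with adjusted p = 0.906 and 0.860 from edgeR. Cxcl16 was lower in every primed library than in every naive one, at 565 to 580 against 621 to 775 CPM in young and 541 to 601 against 639 to 647 CPM in aged cells. Its fitted changes of -0.07 ± 0.13 and -0.18 ± 0.14 did not pass (edgeR adjusted p = 0.868 and 0.703). The young value depends on the set term, estimated at 0.42 ± 0.10 for Cxcl16. Under LPS replicates 1 to 3 and 4 to 6 averaged 662 and 716 CPM of Cxcl16, and in controls 98.6 and 164 CPM. How many of all tested genes separate between naive and primed libraries was not counted, so no fall of Cxcl10 or Cxcl16 is drawn from the separation.

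**Figure D5:**
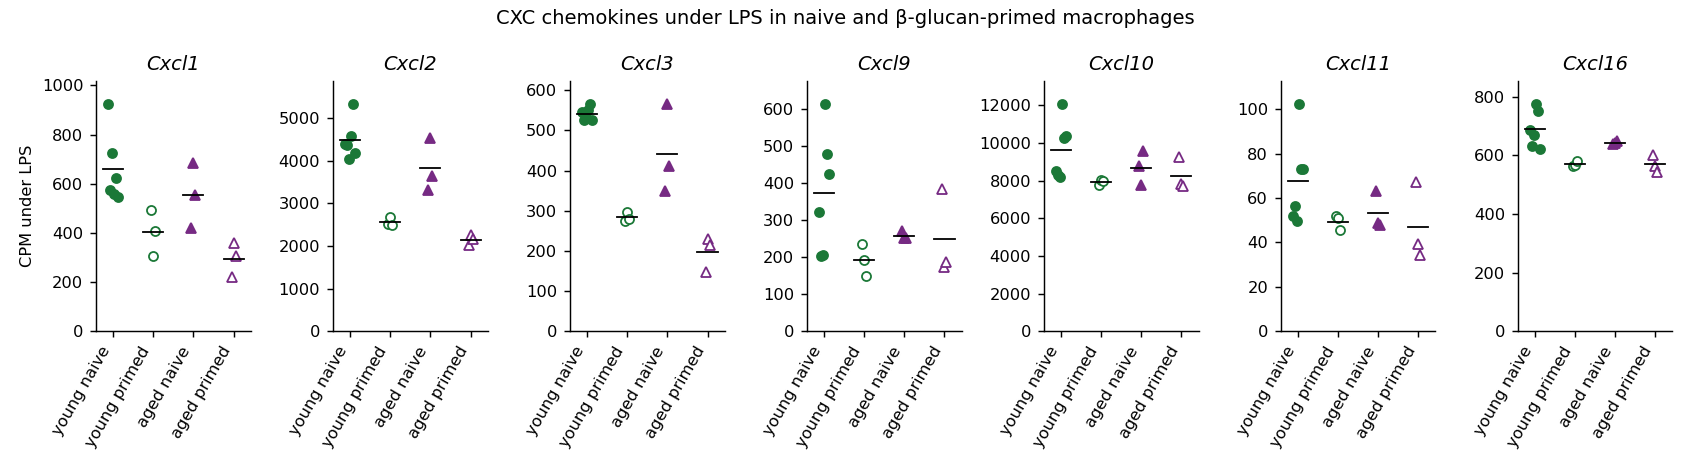
CPM under LPS (linear axes from 0) of each CXC chemokine in naive (filled) and β-glucan-primed (open) cultures, young (green circles) and aged (purple triangles), with points for libraries and bars for means. For Cxcl1, Cxcl2, Cxcl3 and Cxcl16 every primed value lies below every naive value of its age, and for Cxcl9 and Cxcl11 the values overlap. Only Cxcl3 was called by edgeR, and the share of all tested genes that separate in this way was not counted.

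Age was not associated with a called difference in any of the 7 chemokines under any treatment. The background was 0.442% of tested genes called between aged and young controls, 0.210% at 4 h, 0.312% at 24 h, 0.0680% on day 3, 0.895% under LPS and 0.164% under LPS after priming. In edgeR 2 of the 7 had an unadjusted p below 0.05 in controls, 2 at 4 h, 0 at 24 h, 0 on day 3, 0 under LPS and 1 in primed cells. DESeq2 called 1 in controls and 0 elsewhere. The result at 24 h depended on aged replicate 1, without which Cxcl10 was lower in aged cells (-1.99, edgeR adjusted p = 0.0256). In controls it depended on the young libraries used, as Cxcl16 was lower in aged cells without young control replicate 2 (-0.55, edgeR adjusted p = 0.00802). Under naive LPS all 7 fitted changes were below 0 in aged cells, from -0.44 ± 0.28 for Cxcl9 to -0.11 ± 0.13 for Cxcl16 (lowest edgeR adjusted p = 0.555), and the libraries overlapped for every gene.

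Aged and young libraries did not overlap in 4 cases, none of which passed the test. The share of all tested genes without overlap was not counted, so no age difference is drawn from these cases. At 4 h Cxcl2 lay at 137 to 204 CPM in aged and 230 to 323 CPM in young cells (log2 change -0.79 ± 0.38, edgeR adjusted p = 0.793). In primed LPS cells Cxcl3 lay at 147 to 230 CPM in aged and 275 to 296 CPM in young cells (-0.52 ± 0.21, edgeR adjusted p = 0.487), and Cxcl2 at 2013 to 2247 against 2483 to 2673 CPM (-0.26 ± 0.37, adjusted p = 0.904). At 24 h Cxcl3 was higher in aged cells, at 0.354 to 0.507 against 0.0648 to 0.345 CPM, or 69 against 32 counts over each group (0.94 ± 0.67, edgeR adjusted p = 1).

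None of the 7 responses differed between the ages by the interaction test. The same held for nearly all genes, with 0.00567% of tested genes called for the 4 h response, 0% for the 24 h, day 3 and LPS responses and 0.00567% for priming. No chemokine had an unadjusted p below 0.05 in these 5 tests, and DESeq2 called none. Over all genes, edgeR gave 516, 498 and 1037 genes with an unadjusted p below 0.05 for the 24 h, day 3 and LPS responses, and DESeq2 called 2, 3 and 7. For Cxcl2 the age difference was 0.02 ± 0.54 at 4 h, 0.89 ± 0.49 under LPS and -0.34 ± 0.50 after priming (log2, aged minus young).

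Other genes of the same pathways were counted from lists. The NF-κB regulators, which act upstream of the neutrophil-attracting genes or feed back on them, rose, 10 of 10, at 4 h of β-glucan at both ages, with a median log2 change of 1.34 in young and 1.27 in aged cells, where 7.45% and 4.87% of all tested genes rose. The inhibitor Nfkbia changed by 2.18 ± 0.15 in young (edgeR adjusted p = 3.88e-13) and 2.33 ± 0.17 in aged cells (adjusted p = 4.28e-12). The deubiquitinase Tnfaip3, a brake on the pathway, changed by 1.98 ± 0.16 (adjusted p = 1.94e-11) and 1.68 ± 0.18 (adjusted p = 1.55e-08). At 24 h 7 of 10 were higher than in control at both ages, beside 7.79% of tested genes in young and 4.02% in aged cells. Under LPS 10 of 10 were, beside 30.3% and 26.6%. On day 3 edgeR called 0 at either age (3 in young and 1 in aged cells at an unadjusted p below 0.05; 1 and 0 in DESeq2). In primed against naive LPS edgeR called 0, with medians of -0.24 in young and -0.15 in aged cells (3 and 0 at an unadjusted p below 0.05; 0 and 0 in DESeq2).

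Of 17 interferon pathway regulators, 4 rose in young and 5 in aged cells at 4 h and none fell, beside 7.45% and 4.87% of tested genes that rose. Irf1, a factor that binds response elements in the Cxcl9 and Cxcl10 genes, changed by 1.52 ± 0.20 in young (edgeR adjusted p = 1.45e-06) and 1.54 ± 0.22 in aged cells (adjusted p = 1.04e-05). At 24 h 8 rose in young and 2 in aged cells, beside 7.79% and 4.02% of tested genes. Irf7 changed by 2.21 ± 0.32 (edgeR adjusted p = 1.34e-05) and 1.49 ± 0.35 (adjusted p = 0.00827), and Usp18, an inhibitor of interferon receptor signalling, by 1.40 ± 0.23 (adjusted p = 6.97e-05) and 1.11 ± 0.25 (adjusted p = 0.00610). Ifnb1, the gene of interferon-β, was at 0 in all control libraries and at most at a trace at 4 h and 24 h, and reached 18.7 ± 6.75 CPM in young (SD, n = 6) and 11.8 ± 2.42 CPM in aged LPS cells (SD, n = 3). Under LPS 14 of the 17 rose and 2 fell in young cells, and 15 rose and 2 fell in aged cells, beside 30.3% and 26.6% of tested genes that rose. After priming edgeR called 0 at either age (1 in young and 0 in aged cells at an unadjusted p below 0.05; 0 and 0 in DESeq2).

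Among 6 regulators of cytokine messenger stability, 1 was called in primed against naive LPS at both ages. Zfp36l2, a relative of tristetraprolin that binds AU-rich elements and promotes decay, stood at 44.1 ± 0.636 CPM in young primed and 28.9 ± 1.82 CPM in young naive LPS cells, and at 47.6 ± 5.47 against 29.6 ± 2.57 CPM in aged cells. Its log2 change was 0.82 ± 0.14 in young (edgeR adjusted p = 0.000285) and 0.69 ± 0.15 in aged cells (adjusted p = 0.0153), where 2.44% of tested genes were higher in young and 0.606% in aged cells. Zfp36 itself was at 439 to 547 CPM on average in the 4 LPS groups and changed by -0.13 ± 0.21 in young (edgeR adjusted p = 0.823) and -0.09 ± 0.22 in aged cells (adjusted p = 0.947) after priming. Whether these levels bear on the chemokines was not tested.

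The receptors of the neutrophil-attracting and interferon-linked chemokines differed in level in control cells. Cxcr6, the receptor of CXCL16, is not described here. Cxcr2, the receptor of the neutrophil-attracting chemokines, averaged at most 0.162 CPM in any group and had no count with LPS. Cxcr3, the receptor of the interferon-linked ones, averaged 6.58 ± 1.82 CPM in the young controls and 7.61 ± 0.445 CPM in the aged ones. It fell at 4 h of β-glucan by 1.15 on the log2 scale in young (edgeR adjusted p = 0.00293) and by 1.01 in aged cells (adjusted p = 0.0191), the only 1 of 5 tested receptors called there, where 4.61% of tested genes fell in young and 1.59% in aged cells. Under LPS 3 of the 5 fell and 1 rose at both ages, where 34.7% fell in young and 28.9% in aged cells. Cxcr4, the receptor of CXCL12, fell from 81.7 ± 13.3 to 3.07 ± 1.46 CPM in young and from 75.5 ± 5.12 to 2.49 ± 0.630 CPM in aged cells.

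Of the CXCL16 proteases, Adam17 rose at 4 h of β-glucan, from 393 ± 9.57 to 598 ± 35.1 CPM in young and from 340 ± 23.4 to 550 ± 18.0 CPM in aged cells. Its log2 change was 0.58 ± 0.06 (edgeR adjusted p = 4.46e-09) and 0.70 ± 0.07 (adjusted p = 7.56e-10). Adam10 fell at 24 h by 0.39 in young (edgeR adjusted p = 0.00435) and by 0.34 in aged cells (adjusted p = 0.0381), where 3.75% of tested genes fell in young and 1.21% in aged cells. Under LPS Adam17 rose and Adam10 fell at both ages.

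Of 8 other CXC ligand genes 6 could be tested. At 4 h of β-glucan edgeR called 0 of them at either age. An unadjusted p below 0.05 was met by 0 in young and 1 in aged cells, and DESeq2 called 0 and 0. Of all tested genes 7.45% rose and 4.61% fell in young cells, and 4.87% rose and 1.59% fell in aged cells. With 6 genes, 0 calls lie near these shares. Pf4 (CXCL4), a chemokine also made by platelets, was lower in young cells at 24 h (-0.50 ± 0.15, edgeR adjusted p = 0.0257), on day 3 (-0.63 ± 0.15, adjusted p = 0.0294) and in primed against naive LPS (-0.71 ± 0.15, adjusted p = 0.00384). In aged cells its changes were -0.33 ± 0.16 (edgeR adjusted p = 0.265), -0.54 ± 0.16 (adjusted p = 0.184) and -0.51 ± 0.16 (adjusted p = 0.127). Cxcl14, the other ligand called at 24 h in young cells, changed by -0.68 ± 0.21 (edgeR adjusted p = 0.0311) and in aged cells by -0.40 ± 0.22 (adjusted p = 0.344). Of all tested genes in young cells, 3.75% were lower at 24 h, 0.782% were called on day 3 and 1.17% were lower after priming. Under LPS 3 of the 6 ligands rose and 1 fell in young cells, beside 30.3% and 34.7% of tested genes. In aged cells 2 rose and 1 fell, beside 26.6% and 28.9%. Cxcl5, an ELR chemokine, had no count in the 9 control libraries and reached 1.77 ± 0.640 CPM in young and 1.44 ± 0.498 CPM in aged LPS cells.

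Over the 12 group means, all pairs of the 7 genes had a Pearson r of log2 CPM between 0.889 and 0.996, lowest for Cxcl2 with Cxcl9 and highest for Cxcl1 with Cxcl3. The LPS groups dominate such values. Among 8499 other genes whose log2 CPM averaged 3 or more, those most like the mean of Cxcl1, Cxcl2 and Cxcl3 were Tnf (r = 0.9995), Socs3, Zc3h12c, Prdm1 and Pde4b. Most like the mean of Cxcl9, Cxcl10 and Cxcl11 were Mx1 (r = 0.999), Ifit1, Pik3r6, Ifit2 and Trafd1. Nearest to Cxcl16 were Sod2 (r = 0.999), Marcksl1, Slc31a2, Mllt6 and Nfkb2. These r values describe 12 points that share libraries and controls, and carry no test.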

How the data were processed

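Of the values the authors deposited, only the raw gene counts were used. Reads were processed with STAR on mm10 per the submitters' processing notes. The counting program, annotation release and strand setting are not given in the sources used here, so reads of overlapping genes may have been shared. Per the labels' protocols, DNase-treated total RNA went into NEBNext Ultra libraries.

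The analysis ran in edgeR 4.0.16 under R 4.3.3. Genes were filtered by filterByExpr (minimum count 10, 17648 of 54532 genes or 32.4%, at least 99.98% of each library's counts) and scaled by TMM. A quasi-likelihood model with a robust trended dispersion was fitted to all 42 libraries with 12 groups and 1 term for young replicates 4 to 6. For age comparisons the set term entered at its midpoint. SE is the absolute log2 fold change divided by the square root of F. Against a group with no count, the bound uses 3 counts over the group. Such bounds cover counting error only. Alternatives were DESeq2 1.42.0 (with its own size factors), other scalings, no filter, no set term, single sets, the replicate block, the compared groups alone and leaving out each library. The fit was tested on simulated counts.

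The members and lists were chosen with earlier results of these data known. All 7 members were named in each comparison, and from each list at most 4 called genes with the smallest adjusted p. Overlap between libraries was looked at for the 7 members only, so its share over all tested genes is not known. Stat2, Ifnb1, Zfp36, Cxcr2 and Cxcl5 were named after their values were seen. Same-numbered libraries deviated together in 0 of 14 comparisons (correlations from -0.00793 to 0.114, against a required 0.1 in every pair), so the numbers were not taken as pairs. Promoters are from RefSeq, matched by symbol for 5 of 7 members. P-values measure the spread between cultures.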

Additional observations from a re-analysis of the deposited data

How the results depend on the processing

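The count of chemokines called stayed within 1.5 times the reported one, or at 0, in 402 of 423 recomputed counts. For young cells at 24 h of β-glucan (4 called) it was 2 without the count filter, 1 without the term for young replicates 4 to 6, 2 with the compared groups alone and 0 to 5 when 1 library was left out. On young day 3 (0 called) it was 2 without that term, 2 in DESeq2 and 0 to 1 with a library left out. For young priming (1 called) it was 2 in the groups alone, 0 in DESeq2 and 0 to 1 with a library left out, and for aged priming (1 called) it was 0 in DESeq2. For aged cells at 24 h (3 called) it was 1 in the groups alone. For 24 h against 4 h (3 called) DESeq2 gave 5 in young and 5 in aged cells. Between aged and young controls (0 called) it was 2 with young replicates 4 to 6 only, 1 in DESeq2 and 0 to 1 with a library left out, and at 24 h (0 called) 0 to 1. The causes were not tested. Where a library was left out, the number of samples fell as well.

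With the replicate block, which was not used between ages because each mouse has 1 age, young priming had 2 calls (Cxcl3 and Cxcl1). The block also gave 5 calls for young cells at 24 h and 4 for 24 h against 4 h at both ages. No called change reversed. Of the single chemokines, 28 recomputed values lost their call and 26 gained it, and Cxcl10 in aged cells at 24 h lost it in 8 of 14 settings. The balance under LPS against control was -1.29 in young cells, -2.04 with a prior count of 0.5 and -3.49 for Cxcl2 against Cxcl10 alone. At 4 h it was 3.14 and, for that pair, 2.17. Counts over all genes moved too, for example from 637 to between 329 and 1385 for young priming and from 78 to between 17 and 746 between aged and young controls. Total-count scaling lowered the share of higher calls among all calls from 61.7% to 35.3% for young β-glucan at 4 h. Depth limits Cxcl9 and Cxcl11 most, which in control cells had 38 and 0 counts over the 6 young libraries, so that a fall of Cxcl11 could not be seen.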
